A study of Mus musculus with 5 samples.

Results

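The Toll-like receptor genes were examined as a group of 10 among the 21000 protein-coding genes of the mouse annotation. They were Tlr1, Tlr2, Tlr6, Tlr4 and Tlr5, which encode receptors of the cell surface, and Tlr3, Tlr7, Tlr8, Tlr9 and Tlr13, which encode receptors of the endosome. The rule took them by gene symbol and used no measured value; Tlr11 and Tlr12, further family members of the mouse, were not included. The measurement was the position of DNaseI hypersensitive sites (DHSs), stretches of chromatin that the nuclease DNase I cuts readily because they are open. A DHS belonged to the promoter of a gene when it lay within 1 kb of an annotated transcription start site (TSS). A DHS was assigned to the locus of a gene when that gene had the nearest curated protein-coding TSS and the DHS lay inside the gene or up to 100 kb from that TSS. By these rules 7 DHSs of MES, 11 of HB, 19 of HE, 6 of HP and 46 of MAC belonged to the 10 genes.

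Toll-like receptors are transmembrane proteins of innate immune cells. Their leucine-rich ectodomains bind molecules of microbes, and their cytoplasmic TIR domains recruit adaptor proteins that start kinase cascades ending at NF-kB and interferon regulatory factors. TLR1 and TLR6 each pair with TLR2 to bind bacterial lipopeptides, TLR4 binds lipopolysaccharide together with MD-2 (the product of Ly96) and CD14, and TLR5 binds flagellin. TLR3 binds double-stranded RNA, TLR7 and TLR8 belong to the subfamily that senses single-stranded RNA, TLR9 binds unmethylated CpG DNA and TLR13 binds bacterial ribosomal RNA. Macrophages are among the cells in which these receptors have been studied most.

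All cells were differentiated in culture from a mouse embryonic stem cell line of strain 129 that carries a GFP reporter in the brachyury gene, so all 5 groups share this line and reporter. The groups were mesoderm (MES, Bry:GFP+ Flk1-), hemangioblast (HB, Bry:GFP+ Flk1+), hemogenic endothelium (HE, Tie2+ cKit+ CD41-), blood progenitors (HP) that express CD41, and CD11b+ macrophages (MAC) grown on from CD41+ cells. The GFP reporter and surface proteins together defined the populations, and the later stages were grown on with cytokines, so stage and culture medium cannot be told apart. Each stage was represented by 1 list of DHSs with no height, score or read count, so differences between stages have no replicate error and no test. The lists carry no depth, and the read totals that the authors tabulated elsewhere were not used here. For MAC the label names 2 replicates, which share that list.

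The lists held 17734 (HP) to 37456 (MAC) DHSs, and their median widths ran from 600 bp (MAC) to 1200 bp (HE). The promoters of marker genes were read by the same rule. All 6 macrophage markers (Itgam, Csf1r, Adgre1, Cd68, Mrc1 and Lyz2) had a promoter DHS in MAC against 1 of 6, Cd68, in every other stage. All 4 endothelial markers had one in HE, 2 of them also in HP and 1, Sox17, also in HB, and none had one in MES or MAC. The 3 mesoderm markers were open in MES and HB, 2 of them, Mixl1 and Pdgfra, also in HE, and Pdgfra also in MAC. Of 9 markers of other blood cells 2 had a promoter DHS in MAC, the megakaryocyte gene Pf4 and the erythroid gene Klf1, and the neutrophil genes Elane, Mpo and Ly6g had none there. The progenitor markers did not separate HP, since 2 of 4 were open there and 3 of 4 in HE, and Gfi1b was open in MAC only. Both hemangioblast markers, Kdr and Etv2, were open in MES, HB, HE and HP, and Kdr also in MAC.

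The sequences below are those that the motif results turn on, read from the RefSeq mm10 (GRCm38.p6) genome. The DHSs of all stages were set to 500 bp around their middles and merged into regions, and exact motif matches were sought in the central 300 bp. The motif of PU.1, an ETS-family transcription factor of myeloid cells, was found in 4 of the 56 regions of the Toll-like receptor genes (7.14%). Of all 68842 regions, at any distance from a TSS, 6.24% held it. All 4 of these regions were of MAC only (11.8% of the MAC-only regions of these genes against 12.2% of all MAC-only regions). The wide HE DHS at Tlr4 also spans the match there. They are shown with 10 bases on each side, on the strand of the gene, with the match in capitals: Tlr1 (chr5:64933564-64933591, minus strand), Tlr4 (chr4:66827683-66827710, plus strand), Tlr9 (chr9:106222598-106222625, plus strand) and Tlr5 (chr1:182944817-182944844, plus strand). The first 3 lay at the promoter and the match of Tlr5 lay in a region whose middle was 9.92 kb upstream of its TSS.
Tlr1: ttaaatgttgGAGGAAGTaggagcttga
Tlr4: tggcactctcACTTCCTCtttgaatata
Tlr9: tgaaagtgtcACTTCCTCaattctctga
Tlr5: tgacctaagtGAGGAAGTctgaacccag

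Longer stretches are shown for 5 further places, with AP-1, CEBP, RUNX, PU.1 and ETS matches in capitals. The 250 bases upstream of the Tlr9 TSS (chr9:106222348-106222597, plus strand) are shown because the MAC DHS that covers this TSS, and that no other stage had, begins at position 106222401 within them. The middle 150 bp of the intronic region of Tlr6, upstream of its curated TSSs (chr5:64961071-64961220), of 1 region far upstream of Tlr4 (chr4:66793532-66793681) and of the Tlr13 region downstream of its gene (chrX:106164114-106164263) were open in MAC only. The middle of a region downstream of Tlr5 (chr1:182983151-182983300) was open in all 5 stages and is shown for contrast. Regions are printed on the plus strand.
Tlr9 promoter: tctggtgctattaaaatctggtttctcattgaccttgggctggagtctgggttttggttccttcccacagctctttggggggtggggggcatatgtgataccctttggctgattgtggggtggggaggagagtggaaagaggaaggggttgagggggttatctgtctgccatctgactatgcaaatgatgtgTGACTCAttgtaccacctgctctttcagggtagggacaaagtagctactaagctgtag
Tlr6 intronic region: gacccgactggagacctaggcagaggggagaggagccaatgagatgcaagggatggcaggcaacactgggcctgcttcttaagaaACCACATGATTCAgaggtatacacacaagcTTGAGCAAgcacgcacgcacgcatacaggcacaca
Tlr4 upstream region: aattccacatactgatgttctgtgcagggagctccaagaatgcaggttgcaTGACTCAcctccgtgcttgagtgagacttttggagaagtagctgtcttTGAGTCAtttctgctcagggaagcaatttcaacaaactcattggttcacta
Tlr13 downstream region: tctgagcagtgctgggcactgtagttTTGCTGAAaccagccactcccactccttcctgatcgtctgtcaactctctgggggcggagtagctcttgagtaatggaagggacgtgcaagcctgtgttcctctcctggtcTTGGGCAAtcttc
Tlr5 shared region: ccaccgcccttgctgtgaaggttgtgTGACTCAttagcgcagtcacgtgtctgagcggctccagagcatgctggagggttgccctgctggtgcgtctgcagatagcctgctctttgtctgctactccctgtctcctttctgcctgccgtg
The Tlr4 region held 2 AP-1 matches and the Tlr13 region 2 CEBP matches, while the Tlr6 region held a RUNX, an AP-1 and a CEBP match. The shared Tlr5 region also held an AP-1 match, and its central 300 bp held a CEBP match outside the printed stretch.

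Promoter DHSs at the Toll-like receptor genes were fewest in HP, MES and HB and most frequent in HE and MAC. Of the 10 genes, MES had a promoter DHS at 2, HB at 3, HE at 6, HP at 1 and MAC at 8. Over all protein-coding genes the share was 57.2% (MES), 58.9% (HB), 61.7% (HE), 50.1% (HP) and 50.2% (MAC). The group thus stood below the share of all genes in MES, HB and HP, near it in HE and above it in MAC. None of the 10 had a promoter DHS in all 5 stages, the pattern of 43.4% of all genes. The promoters of Tlr1, Tlr4, Tlr3, Tlr9 and Tlr13 were open in MAC and in neither MES nor HB, 5 of 10 genes against 3.04% of all genes. Of these, Tlr1, Tlr9 and Tlr13 were open in MAC only, 3 of 10 against 1.77%. Tlr8 had no promoter DHS in any stage, as did 32.4% of all genes. The MAC promoter DHSs of Tlr1, Tlr2, Tlr5, Tlr9 and Tlr13 were narrow, between 200 and 400 bp against a median of 800 bp for the promoter DHSs of that list. When each list was limited to its 17734 widest DHSs, the MAC count fell to 3 of 10 (Tlr6, Tlr4 and Tlr3) against 39.8% of all genes, which ends the excess. In those lists no gene of the group was open in MAC only (0 of 10 against 1.1%), and 2, Tlr4 and Tlr3, were open in MAC and in neither MES nor HB (against 1.83%). Width is the only value attached to a DHS, and what it measures in these lists was not tested.

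**Figure D1:**
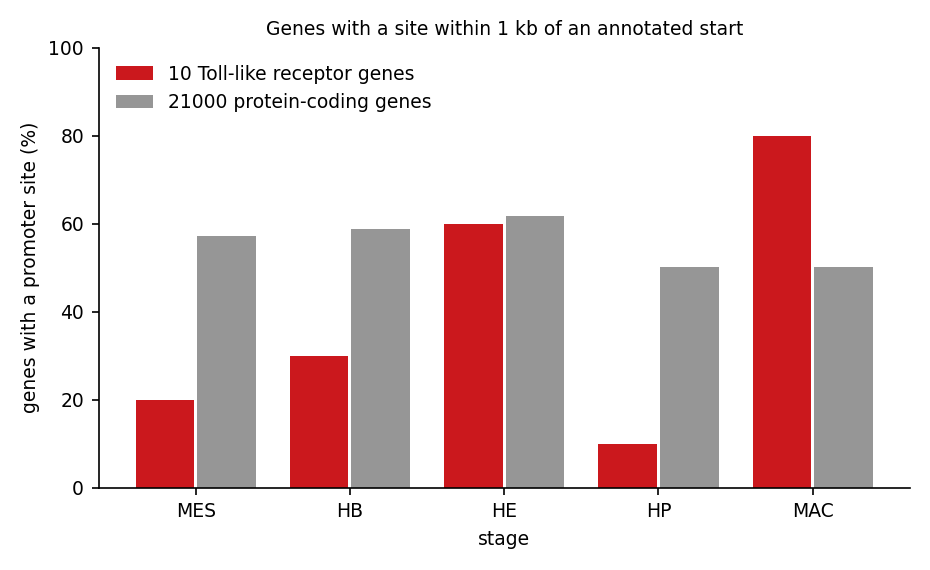
Share of genes with a DHS within 1 kb of an annotated TSS, in percent (y axis), in each of the 5 stages (x axis), for the 10 Toll-like receptor genes (red bars) and all 21000 protein-coding genes (grey bars). The red bar is below the grey bar in MES, HB and HP, close to it in HE and above it in MAC, where 8 of 10 genes had a promoter DHS; bars carry no error because each stage has 1 list.

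Counting all assigned DHSs of the full lists gave the same order of stages. The 10 loci held 7 DHSs of MES, 10 of HB, 18 of HE, 6 of HP and 46 of MAC, the promoter DHSs that lie nearer to another gene left out. Every one of the 10 genes had at least 1 assigned DHS in MAC, as did 63.2% of all genes, while 4 of 10 had one in HP against 54.0% of all genes. Tlr4 with 11, Tlr5 with 8 and Tlr2 and Tlr13 with 6 each had 5 or more in MAC, 4 of 10 genes against 9.0% of all genes. With the 17734 widest DHSs of each list, Tlr4 with 6 and Tlr2 with 5 did, 2 of 10 against 1.79%, and by nearest gene body Tlr13 dropped out with 4. In those widest lists the 10 loci held 7 DHSs of MES, 6 each of HB, HE and HP and 20 of MAC. Only the lead of MAC in the order of stages then remained. Tlr4 had the highest count of the group in MAC, and 0.943% of all genes had as many as 11 DHSs there. That share takes no account of locus size, and the DNA nearest to Tlr4 was the largest of the 10 genes. Per 100 kb of the DNA nearest to the gene, Tlr4 had 5.5 DHSs in MAC, below Tlr13 (7.51) and Tlr9 (13.4).

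**Figure D2:**
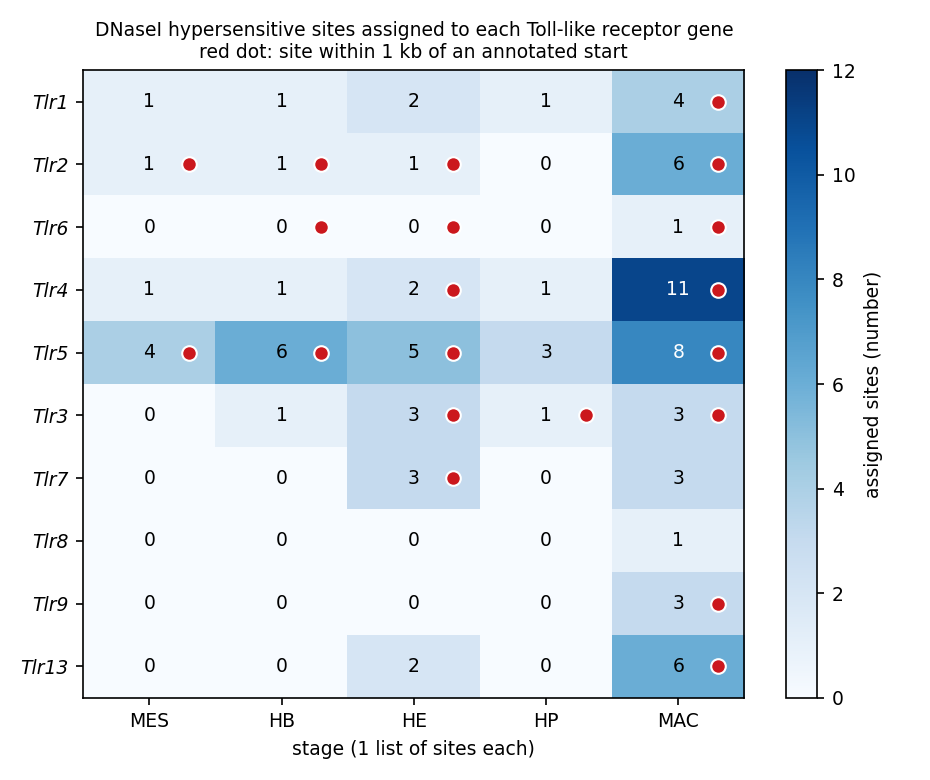
Number of DHSs assigned to each Toll-like receptor gene (rows) in each stage (columns), with darker blue for more; a red dot marks a DHS within 1 kb of an annotated TSS. The MAC column holds the highest count of every row, tied with HE for Tlr3 and Tlr7, and Tlr4 reaches 11; Tlr6 shows dots in HB and HE without an assigned DHS because that DHS lies nearest to Fam114a1.

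Loci differ in size, and the DNA nearest to these genes was larger (median 70.6 kb) than that of all genes (median 49.0 kb), so counts were also expressed per 100 kb of the DNA nearest to the gene. The 10 genes together, with 910 kb, had 0.769 DHSs per 100 kb from the MES list, 1.1 from HB, 1.98 from HE, 0.659 from HP and 5.05 from MAC. All genes had 1.36, 1.51, 1.97, 1.11 and 2.2. The density over the group was thus 0.564 times that of all genes in MES and 2.29 times in MAC, with a ratio of 1.0 in HE. Expressed as DHSs at these genes per 1000 assigned DHSs of a list, the value was 1.35 in MAC and 0.337 to 0.59 in the other stages. With each list limited to its 17734 widest DHSs it was 1.21 in MAC and 0.353 to 0.413 elsewhere, so the difference of MAC by locus held where that by promoter did not.

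**Figure D3:**
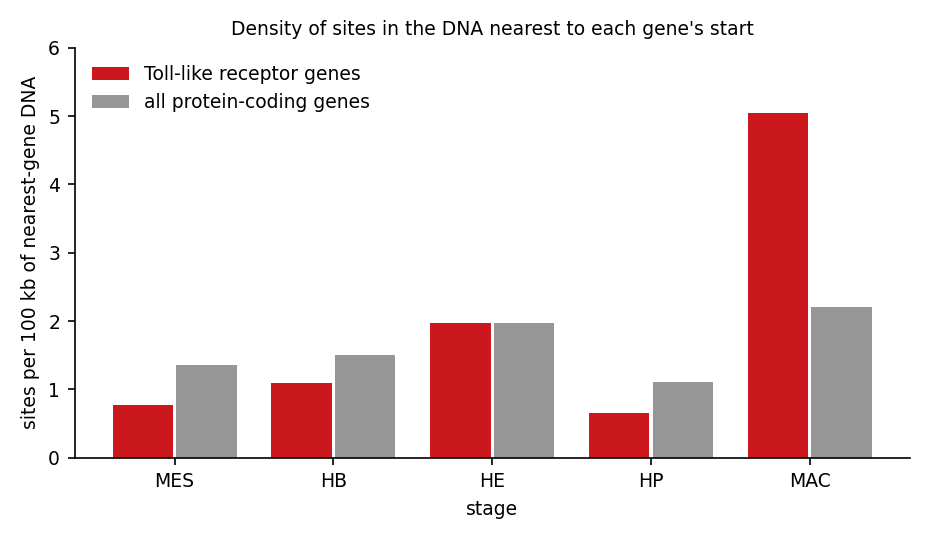
DHSs per 100 kb of the DNA nearest to the TSS of a gene (y axis) by stage (x axis), for the 10 Toll-like receptor genes together (red) and all protein-coding genes together (grey). In MAC the red bar stands at 5.05 and the grey bar at 2.2; in MES, HB and HP the red bar is the lower.

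Among the surface receptors, Tlr1, Tlr2 and Tlr6 encode the partners of the lipopeptide heterodimers. Tlr1 (chr5:64924680-64933600, minus strand) and Tlr6 (chr5:64953092-64970942, minus strand) are neighbours, 19.5 kb apart. At Tlr1 a DHS of 200 bp covered the TSS in MAC, a width below which only 1.2% of the DHSs of that list fell, and no other stage had one there. Tlr1 had 4 DHSs in MAC, 2 in HE and 1 each in MES, HB and HP. The DHS of MES, HB and HP lay 54.4 to 54.7 kb downstream of its TSS, where HE also had one and MAC had none. The other MAC DHSs lay 9.35, 45.2 and 48.3 kb downstream, the last shared with HE and, like the one at 45.2 kb, within an intron of the non-coding gene Gm31889. When non-coding genes were allowed as the nearest gene, Tlr1 kept 2 MAC DHSs.

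At Tlr6 the MAC list held 1 DHS, 1000 bp wide and 598 bp from the nearest annotated TSS, inside an intron of predicted transcripts. HB and HE had DHSs of 1100 and 1700 bp at a predicted distal TSS of Tlr6 (64970036 on chromosome 5), close to the TSS of Fam114a1 at the opposite strand, and MAC had none there. With curated TSSs only, Tlr6 was open in MAC alone.

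Tlr2 (chr3:83836272-83841824, minus strand) was the only gene of this trio with a promoter DHS in MES. Its promoter was marked in MES (500 bp), HB (700 bp), HE (1300 bp) and MAC (400 bp) and not in HP. The 5 other DHSs at Tlr2 belonged to MAC alone and lay 1.99 kb downstream of the TSS within an intron and 3.66, 17.9, 21.6 and 43.7 kb upstream in intergenic DNA. The outer pair of these was 1000 bp wide each, wider than 84.7% of the MAC DHSs. Tlr2 thus had the same promoter region in 4 stages, and DHSs away from the promoter in MAC only.

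Tlr4 (chr4:66827551-66846581, plus strand) encodes the lipopolysaccharide receptor. No DHS was found within 1 kb of its TSS in MES, HB or HP. In HE a DHS of 2000 bp (chr4:66827308-66829307) covered the TSS and the start of the gene, wider than 91.2% of the promoter DHSs of that list. In MAC the same stretch held 2 separate DHSs, 1000 bp wide at the TSS and 300 bp wide with its middle 1.21 kb downstream. HP had 1 DHS of 300 bp there, 1.31 kb downstream and overlapping the smaller of the MAC DHSs. A DHS 67.2 to 67.4 kb downstream was present in MES, HB, HE and MAC and absent from the HP list. The other 8 MAC DHSs were in MAC only. They lay 33.9, 30.7 and 5.25 kb upstream and 15.9, 24.7, 29.7, 42.3 and 64.3 kb downstream of the TSS, all of them intergenic except that at 15.9 kb, which lay in the 3′ untranslated part of the last exon. Just beyond the limit of 100 kb, HE and HP had a DHS at 100.256 and 100.313 kb downstream, and MAC had none.

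Tlr5 (chr1:182954752-182976044, plus strand), which encodes the flagellin receptor, had the most DHSs of the group in each stage before MAC. Its locus held 4 DHSs of MES, 6 of HB, 5 of HE, 3 of HP and 8 of MAC, and 3.6% of all genes had as many as 4 in MES. The DNA nearest to its TSS spans 191 kb. Per 100 kb Tlr5 was also the densest of the group in MES (2.09) and HB (3.14). In HE its 2.61 stood below Tlr7 (5.07) and Tlr3 (4.77), and in HP its 1.57 stood below Tlr3 (1.59). DHSs 5.16 to 5.52 kb downstream of the TSS, in an intron, and 28.4 to 28.5 kb downstream were present in all 5 stages. The TSS itself was covered in MES, HB and HE by DHSs of 500 to 800 bp, while MAC had none there. The promoter call of Tlr5 in MAC came from a separate DHS of 400 bp that ended 638 bp upstream of the nearest annotated TSS. A DHS 36.4 to 36.5 kb downstream was present in MES and HB only. A DHS 46.1 to 46.3 kb upstream was shared by HE, HP and MAC, and another, 3.32 to 3.35 kb upstream, by HE and MAC. MAC alone had DHSs 9.92, 31.8 and 86.7 kb upstream, the last within an intron of Susd4. HB alone had DHSs 58.9 and 1.29 kb upstream. When DHSs were given to the gene whose body was nearest, 5 of the 8 MAC DHSs remained with Tlr5.

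**Figure D4:**
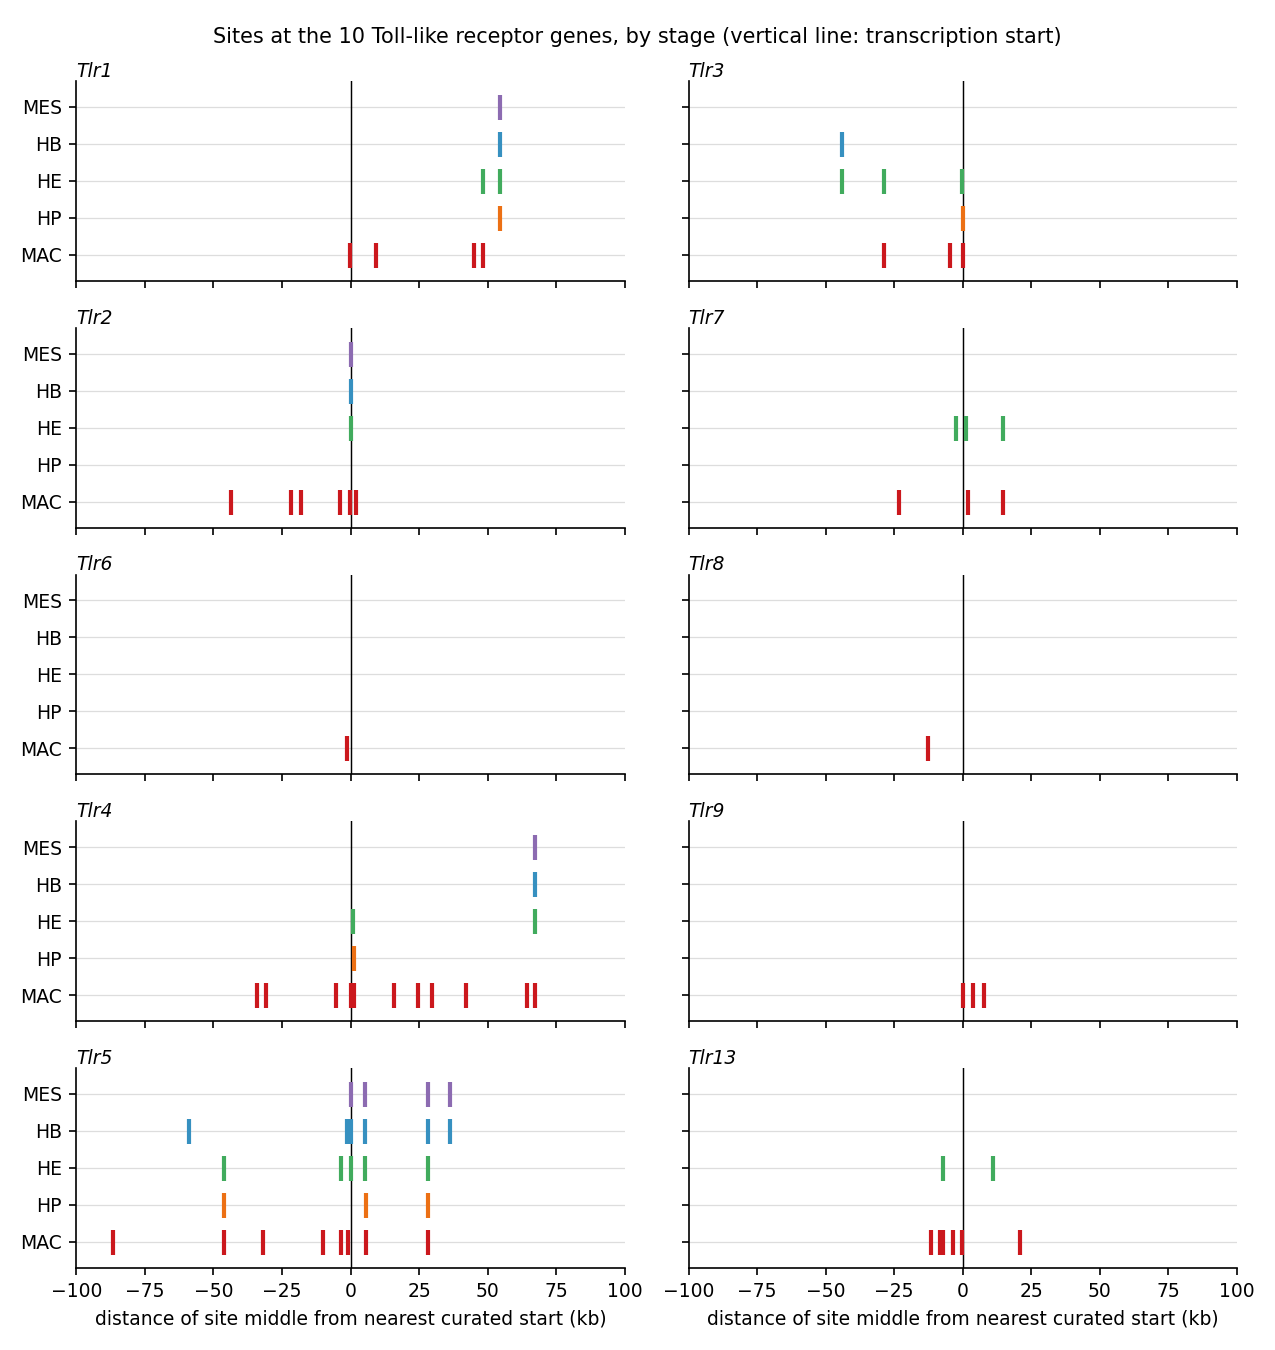
Positions of the assigned DHSs at each Toll-like receptor gene: distance of the middle of the DHS from the nearest curated TSS in kb (x axis, negative upstream) by stage (y axis), 1 panel per gene with the TSS as a vertical line; ticks mark positions and not widths. The MAC row holds 11 ticks at Tlr4, 8 at Tlr5 and 6 each at Tlr2 and Tlr13, the rows of Tlr5 share 2 positions in all 5 stages, and the Tlr9, Tlr6 and Tlr8 panels hold MAC ticks only.

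Of the endosomal receptors, Tlr3 (chr8:45395665-45411075, minus strand) was the only one with a DHS in HP. Its promoter was covered by DHSs in HE (1500 bp), HP (700 bp) and MAC (700 bp) and by none in MES or HB. HB and HE shared a DHS 43.9 kb upstream, HE and MAC 1 at 28.7 kb upstream, and MAC alone had 1 at 4.56 kb upstream. Tlr3 was also the only member with a promoter DHS in HP.

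Tlr7 (chrX:167303380-167330574, minus strand) and Tlr8 (chrX:167241123-167264329, minus strand) are neighbours, 39.0 kb apart. Tlr7 had 3 DHSs in HE and 3 in MAC and none in MES, HB or HP. HE and MAC shared an intronic position, 14.7 and 14.5 kb downstream of the TSS. HE had DHSs 1.36 kb downstream and 2.34 kb upstream, and MAC had DHSs 1.78 kb downstream and 23.3 kb upstream, the latter within an intron of Prps2. The HE DHS at 1.36 kb and the MAC DHS at 1.78 kb overlapped at their edges. The call of an open Tlr7 promoter in HE rested on a DHS 956 bp from an annotated TSS, just inside the limit of 1 kb. With a limit of 2 kb Tlr7 was open in MAC too, and with a limit of 100 bp in no stage. Tlr8 had the lowest density of the 10 genes in MAC, 1.65 DHSs per 100 kb. It had a single MAC DHS of 400 bp, 12.6 kb upstream of its TSS, and no DHS in MES, HB, HE or HP.

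Tlr9 (chr9:106222598-106226876, plus strand) had DHSs in MAC only. A DHS of 400 bp covered the TSS, another of 400 bp lay 3.8 kb downstream in the coding exon, and the last, of 700 bp, 7.75 kb downstream beyond the gene. The DNA nearest to Tlr9 spans 22.3 kb, and these 3 DHSs amounted to 13.4 per 100 kb, the highest density of the 10 genes in MAC. Tlr13 (chrX:106143275-106160493, plus strand) had 2 DHSs in HE and 6 in MAC. In MAC a DHS of 300 bp covered the TSS, 4 lay 3.64 to 11.7 kb upstream and 1 lay 20.9 kb downstream, beyond the end of the gene. In HE 1 DHS, 7.26 kb upstream, overlapped a MAC DHS and the other, 11.0 kb downstream in an intron, was in HE only. MES, HB and HP had no DHS at Tlr9 or Tlr13.

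Across the group the merged regions summarised these positions. The DHSs assigned to the 10 genes formed 56 regions, of which 34 (60.7%) were open in MAC only, against 30.0% of the 59681 regions within 100 kb of any protein-coding gene. Regions open in HE and MAC numbered 5 (8.93% against 3.42%), and regions open in HE only numbered 4 (7.14% against 16.1%). Regions open in all 5 stages numbered 2, both at Tlr5, which is 3.57% against 15.0%. Merging the deposited intervals in place of the windows gave 53 regions, with 32 in MAC only (60.4% against 30.0%) and 2 in HE only (3.77% against 14.2%), since wide HE DHSs reached over the MAC DHSs at the Tlr4 TSS and in the first kilobases of Tlr7. Of the 34 MAC-only regions 24 were intergenic, 6 intronic, 3 in untranslated or non-coding exons and 1 in a coding exon. Of the 46 assigned MAC DHSs, 38 (82.6%) lay more than 1 kb from any annotated TSS, against 69.4% of the MAC DHSs assigned to all genes. Of the 10 genes, 9 had such a DHS in MAC against 44.0% of all genes, 6 in HE against 38.6%, 4 in HB against 29.1%, 3 in MES against 26.9% and 3 in HP against 22.3%. Tlr6 was the gene without one in MAC.

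The motif content of the MAC-only regions at these genes was compared with that of all MAC-only regions. CEBP, AP-1 and PU.1 matches were about as frequent at these genes as in MAC-only regions genome-wide. Motifs were searched as exact letters on both strands. The genome-wide sets for motifs took in regions at any distance from a TSS, 68842 in all, and not only the 59681 within 100 kb. CEBP (TTGCNNAA), the motif of C/EBP factors of the myeloid lineage, was found in 10 of 34 regions (29.4%) against 22.3% of all 21375 MAC-only regions. AP-1 (TGANTCA) was found in 9 (26.5% against 27.2%), PU.1 (GAGGAAGT) in 4 (11.8% against 12.2%) and the ETS core (GGAAGT), which overlaps the PU.1 motif, in 13 (38.2% against 43.6%). RUNX (TGTGGT) was found in 8 (23.5% against 29.5%), ETS-IRF (GGAANNGAA) in 5 (14.7% against 14.0%) and IRF (GAAANNGAA) in 2 (5.88% against 12.7%). The GATA-factor motif, with the letters AGATAA, was found in 5 (14.7% against 11.7%), that of TEAD factors, with the letters CATTCC, in 3 (8.82% against 13.9%) and NF-kB (GGGANTTCC) in 0 (0.0% against 1.45%). In regions of all other patterns genome-wide, CEBP was found in 9.62%, AP-1 in 12.4% and PU.1 in 3.54%. The 22 other regions of the Toll-like receptor genes held CEBP in 7 (31.8%) and AP-1 in 6 (27.3%), and PU.1 in 0. A match of CEBP, AP-1 or PU.1 was present in 19 of the 34 MAC-only regions (55.9%) against 51.8% of all MAC-only regions, and in 10 of the 22 other regions (45.5%) against 23.4% of all other regions. The shares depended on the window. In the central 500 bp, IRF was found in 20.6% of the MAC-only regions of these genes against 19.3% of all, PU.1 in 20.6% against 14.5%, NF-kB in 5.88% (2 regions) against 2.17%, AP-1 in 35.3% against 33.5% and the ETS core in 55.9% against 53.3%, each now higher at these genes. CEBP at 29.4% against 30.3% and GATA at 17.6% against 20.7% were now lower, so the direction turned for 7 of the 10 motifs. These are matches of letters, and binding at them was not measured here.

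**Figure D5:**
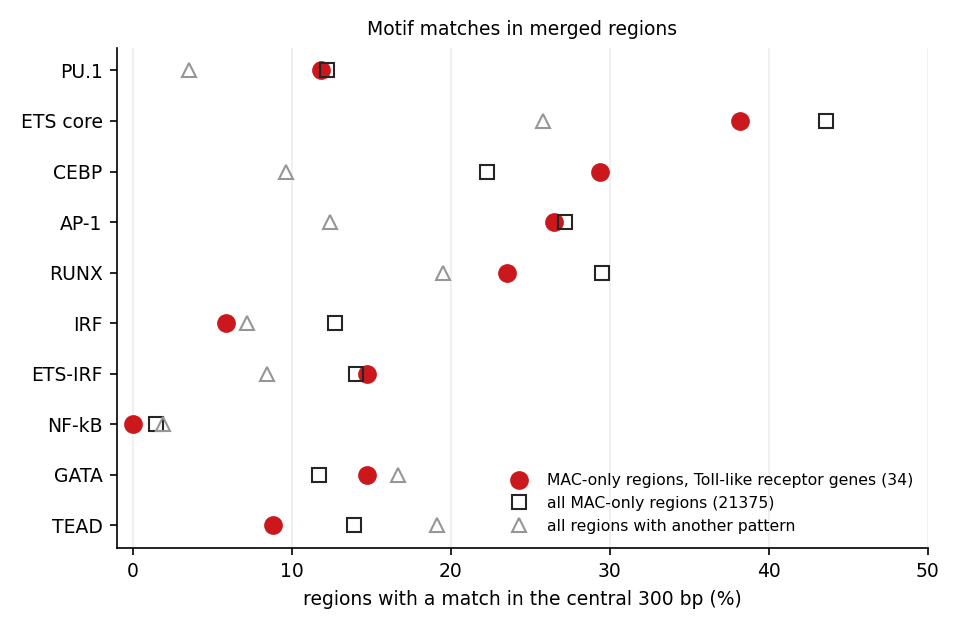
Share of merged regions with a motif match in their central 300 bp, in percent (x axis), for 10 motifs (y axis): MAC-only regions at Toll-like receptor genes (red circles, 34 regions), all MAC-only regions (black squares) and all regions with another pattern (grey triangles). For CEBP, AP-1 and PU.1 the circles and squares lie to the right of the triangles, and the circle of NF-kB stands at 0.0% (5.88% in the central 500 bp, where it exceeds the 2.17% of all MAC-only regions).

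Few of the regions had the base composition of CpG islands. With limits of 50.0% for the GC share and 0.6 for the observed-to-expected CpG ratio over 500 bp, 1 of the 56 regions was CpG rich, the coding region of Tlr9. That is 1.79% against 18.2% of all 68842 regions at any distance from a TSS. It was 1 of the 34 MAC-only regions (2.94%), and among all MAC-only regions 0.884% were CpG rich. Promoter sequences of RefSeq, 250 bases before to 50 after the TSS, were at hand for 8 of the 10 genes as 10 promoters, Tlr4 and Tlr7 having no entry. The number of CpGs ran from 0 at Tlr9 to 11 at Tlr2, with a median of 6 against 7 over all 32851 promoters. The GC share was highest at Tlr2 (62.0%), open in 4 stages, and lowest at Tlr8 (32.3%, with 1 CpG), open in none. Between them, Tlr6, open in 3 stages, had 43.0% and 40.3%, and Tlr1, open in MAC only, had 48.3% and 40.3%. A relation of GC share to open stages was not tested. The promoter of Tlr9, whose product senses CpG DNA, held no CpG and was open in MAC only. Repeated sequence, which reads of 50 bases cannot place uniquely, took up 3.43% of the words of that length within 1 kb of the TSSs at Tlr13, 2.21% at Tlr1 and 0.0% at Tlr2, Tlr6, Tlr8 and Tlr9.

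Accessory, adaptor, kinase, transcription factor and regulator genes of the pathway were read by the same promoter rule. Of these 38 genes, a promoter DHS was listed for 25 by MES, 26 by HB, 31 by HE, 26 by HP and 30 by MAC. The shares of all genes were 57.2%, 58.9%, 61.7%, 50.1% and 50.2% in that order. Adaptors were open early: 4 of 5 had a promoter DHS in each of MES, HB, HP and MAC, among them Myd88, which serves all of these receptors but TLR3, and Ticam1, which serves TLR3 and TLR4. The exception was Ticam2, the bridging adaptor of TLR4 to Ticam1, open in HE only. Of 15 kinases and ubiquitin ligases, which include the Irak and Traf genes, 12 were open in MES and 13 in MAC, and Ikbke, a kinase of the interferon branch, was open in none. Of 5 negative regulators 4 were open in each stage, though not the same genes: Tollip, Tnip1 and Cyld were open in all 5 stages, Sigirr in all but MAC and Pdlim2 in MAC only. Of 4 transcription factors, 2 were open in MES, HB and HP and 3 in HE and MAC. Of 9 accessory genes, MES and HB each had 3 with a promoter DHS, HE 5, HP 4 and MAC 6.

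Of the 38 genes, 4 were open in MAC and in neither MES nor HB, against 3.04% of all genes. They were Ly96, which encodes the MD-2 partner of TLR4 (HE, HP and MAC), Cd180, a receptor relative that restrains TLR4 (MAC only), Irf5, a transcription factor of the MyD88 branch (MAC only), and Pdlim2, which promotes NF-kB turnover (MAC only). Cd14 lacked a promoter DHS in MES and had one in each later stage. Unc93b1, which escorts the endosomal receptors, was open in MES, HE and MAC. Lbp, Cd36, Ly86 and Ikbke had no promoter DHS in any stage, although Ly86 had 9 assigned DHSs in MAC, Ikbke 7 and Cd36 6. In MES, 2 of 10 receptors and 3 of 9 accessory genes had a promoter DHS, against 4 of 5 adaptors and 12 of 15 kinases and ubiquitin ligases.

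The pathway gene with the most similar numbers of assigned DHSs over the 5 stages was found for each receptor by the summed absolute difference. Ikbkb had the same counts as Tlr1 (difference 0), and Hsp90b1 and Myd88 the same as Tlr6 and Tlr8, with 1 assigned DHS in MAC and none in the other stages. Assigned DHSs leave out promoter DHSs that lie nearer to another gene: Hsp90b1 and Myd88 had a promoter DHS in all 5 stages, and Tlr6 also in HB and HE. Ikbke differed from Tlr2 by 1, Cd36 from Tlr13 by 1 and Traf6 from Tlr3 by 1. Cd180 was closest to Tlr4, with 8 DHSs in MAC against 11 and a difference of 4. For Tlr7 (difference 3) 4 genes tied, among them Irak4, Irf5 and Ly96, and for Tlr9 (difference 2) 4 tied, among them Hsp90b1, Irf5 and Ly96. Tlr5 had no close match, with Map3k7 and Tbk1 at a difference of 9. With 5 values per gene and many genes at low counts, ties are common.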

How the data were processed

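DNaseI-seq was carried out on sorted cells of the 5 stages. The authors trimmed reads of 50 bp with CutAdapt, aligned them to mm10 with Bowtie, retained only reads with a unique position, dropped duplicates using Picard, and called DHSs with DFilter in bins of 100 bp; HOMER is also named in the submitters' processing notes, and versions are not given in the sources used here. The deposited lists hold other values than counts, namely the start and end of each DHS in base pairs, with every width a multiple of 100 bp. The lists hold no read counts, and the aligned-read totals tabulated by the authors were not used here, so no interval was computed. Calling in bins limits positions to that step, and unique placement leaves out repeated sequence.

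Promoter and locus rules were applied with RefSeq annotation (GRCm38.p6) in Python 3.11.15 with numpy 2.4.6, pandas 2.3.3 and pysam 0.24.0. TSSs of all transcripts served for promoters and the 26032 curated ones for the nearest gene. DHSs were set to 500 bp around their middle and merged at an overlap of 125 bp or more. With 1 list per stage no test was possible, and counts stand beside those of all 21000 protein-coding genes. The promoter rule, the search for the nearest TSS and the merging were tested on simulated DHSs, all of them 100 bp wide. The locus assignment, the densities, the gene-body rule and the motif search were not tested in this way. The receptor genes, pathway lists, markers and motifs were chosen with earlier results of these data known. All 10 receptors were named, as were pathway genes open in MAC and in neither MES nor HB, those open in no stage, and the pathway gene most alike to each receptor. Other pathway genes and markers were named after their values were seen. Alternatives were other promoter and locus limits, curated TSSs only, distance from the middle, gene bodies, all annotated genes, wider DHSs only, other merging and other motif windows.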

Additional observations from a re-analysis of the deposited data

How the results depend on the processing

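The lists have no replicates, so no paired analysis was possible because each stage has 1 sample, and no replicate could be left out. Width was the setting that moved counts most. When DHSs narrower than their list's median were dropped, the receptor genes with a promoter DHS numbered 0 for MES, 1 for HB, 0 for HP and 3 for MAC, and MES kept 3 assigned DHSs, HB 4, HE 7, HP 2 and MAC 22. With the 17734 widest DHSs of each list, 3 genes had a promoter DHS in MAC, and the assigned DHSs numbered 6 in HB, 6 in HE and 20 in MAC. With a promoter limit of 2 kb, 2 genes were open in HP. The share of all genes with a MAC promoter DHS was 41.4% without the narrower DHSs and 39.8% with the widest ones, so 3 of 10 was then below it; with a limit of 100 bp it was 6 of 10 against 47.0%. The cause was not tested. The other 45 values of the main counts stayed within 1.5 times. MAC had the highest count of assigned DHSs under every alternative run, and for promoters under all but the 2 width settings. In the central 500 bp in place of 300 bp, the MAC-only regions with a match rose by over 1.5 times for 6 motifs: PU.1 in 7, RUNX in 13, IRF in 7, ETS-IRF in 9, NF-kB in 2 and TEAD in 7. The lists give neither depth nor peak height, so a missing DHS shows only that none was listed.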
